A study of Mus musculus with 6 samples.

Results

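Aminoacyl-tRNA synthetases join each amino acid to its transfer RNA (tRNA), and the mRNAs of 36 of these enzymes were followed in cultured mouse biliary epithelium, the lining of the bile ducts. The genes were chosen by symbol, for the enzymes they encode, and the numeral 2 at the end of a symbol marks the mitochondrial form. The list held 20 genes for cytosolic enzymes and 16 for mitochondrial enzymes, of 32061 genes in the deposited count table, and all 36 had enough counts to be tested. No measured value enters that rule. The 6 samples formed 2 groups of 3. In the group called cilia competent, the cells carried primary cilia and were cultured without 4OHT, the usual short form of 4-hydroxytamoxifen. In the group called cilia depleted, the cells had received 4OHT, a drug that activates tamoxifen-inducible forms of the Cre recombinase. All samples came from mouse bile ducts that were expanded as organoids and then grown flat on collagen. Only the depleted group received 4OHT, so 4OHT and cilium loss cannot be told apart. The labels name neither the deleted gene, nor the Cre driver, strain or age of the mice. Nor do the labels state if the 3 samples per group are separate animals or cultures. The p-values therefore reflect the spread among these libraries alone, and that spread could be technical.

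Most cells carry a cytosolic set of synthetases, which feeds the ribosomes of the cytosol, and a separate mitochondrial set, which feeds the few proteins made inside mitochondria. Both sets are encoded in the nucleus. The cytosolic genes are among the textbook targets of ATF4, a transcription factor whose translation rises when the initiation factor eIF2 is phosphorylated under stress or amino acid shortage, and which binds a composite element known as the CARE. Glycyl- and lysyl-tRNA synthetase serve both compartments from a single gene each (Gars and Kars), and the glutamyl and prolyl activities of the cytosol are fused in the product of Eprs.

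Total counts per sample were 26293486 to 36998935, and raw counts of the 36 genes were 66 to 23607 per sample. Values below are CPM, counts relative to the size of the library after TMM scaling, a correction for library composition. A gene is said to have risen or fallen when its adjusted p was below 0.05 in edgeR's quasi-likelihood test over all genes, depleted over competent. Wdr35, an intraflagellar transport gene that is taken as the target from outside knowledge of the study and is not in the labels, was at 33.3 ± 1.98 against 28.0 ± 1.6 CPM (SD, n = 3; log2 change -0.25, adjusted p = 0.00245). These are counts of the entire gene, in which a missing exon would not be visible. Of the biliary markers, Krt7 was at 3150 ± 67.7 against 2471 ± 51.2 CPM, Spp1 at 2382 ± 59.4 against 1213 ± 59.3 CPM and Epcam at 259.5 ± 5.02 against 139.1 ± 10.4 CPM (SD, n = 3), and all of these fell. Sox9 rose from 88.2 ± 0.774 to 350.6 ± 17.9 CPM, and Krt19 was low throughout (12.5 ± 1.13 against 8.33 ± 1.25 CPM). Hepatocyte markers summed to 15.6 to 25.3 CPM and macrophage markers, mostly Csf1r, to 45.1 to 51.1 CPM over all samples. Endothelial and leukocyte markers summed to at most 0.436 CPM. Fibroblast markers summed to 1.27 to 1.56 CPM in competent and 2.72 to 3.48 CPM in depleted samples, with Col3a1 at 0 counts throughout. The part of other cell types in the results below was not tested. In bulk RNA, fewer cells of a type and less RNA per cell cannot be told apart.

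The promoters come first, because the cytosolic set is known for its CARE elements. RefSeq promoters of GRCm38.p6, running from 250 bases before to 50 bases after the annotated start, were matched for 27 of the 36 genes. Both strands were searched for the core of the element, TGATGNAA, in which N is any base. It was found in 5 of 13 cytosolic promoters (Aars, Gars, Iars, Tars and Yars) and in 0 of 14 mitochondrial promoters, while 4.51% of 27025 genes with a promoter in the same table held it. Each line below shows 30 bases of the coding strand around a match, for 1 match per gene, 5′ to 3′, with the core or its reverse complement in capitals.
Gars, chr6:55037960-55037989, plus strand, first core base at -30: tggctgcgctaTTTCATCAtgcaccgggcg
Tars, chr15:11399655-11399684, minus strand, first core base at -15: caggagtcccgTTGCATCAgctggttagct
Yars, chr4:129189895-129189924, plus strand, first core base at 4: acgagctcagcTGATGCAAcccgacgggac
Iars, chr13:49682126-49682155, plus strand, first core base at 8: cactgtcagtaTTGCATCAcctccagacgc
Aars, chr8:111033840-111033869, plus strand, first core base at 10: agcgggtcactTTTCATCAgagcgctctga
Positions are counted from the annotated start, with 1 as its first base. Yars alone carried the core in the forward orientation, and the other matches shown were its reverse complement. Of these 5 genes, Gars, Tars, Yars and Iars fell in depleted cells, and Aars did not pass the test. Of the 8 cytosolic promoters without the core, 4 also belonged to genes that fell (Dars, Farsb, Kars and Mars), 1 to a gene that rose (Eprs) and 3 to genes that did not pass. The difference between these groups of genes was not tested. Of the full cytosolic list 60.0% fell, as did 34.3% of all genes tested.

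To show a promoter with and without the core, the 250 bases before the start follow for Gars, the cytosolic gene that fell most, and for Eprs, the cytosolic gene that rose most. Capitals mark the core, which the Eprs stretch lacks. These genes were picked for their changes, so the pair says nothing of a link between the core and the direction.
Gars, chr6:55037751-55038000, plus strand: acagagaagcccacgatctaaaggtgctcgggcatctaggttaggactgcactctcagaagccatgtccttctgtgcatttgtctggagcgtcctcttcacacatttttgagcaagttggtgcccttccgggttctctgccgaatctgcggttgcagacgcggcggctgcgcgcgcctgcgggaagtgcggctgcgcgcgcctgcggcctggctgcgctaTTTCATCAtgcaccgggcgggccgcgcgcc
Eprs, chr1:185362794-185363043, plus strand: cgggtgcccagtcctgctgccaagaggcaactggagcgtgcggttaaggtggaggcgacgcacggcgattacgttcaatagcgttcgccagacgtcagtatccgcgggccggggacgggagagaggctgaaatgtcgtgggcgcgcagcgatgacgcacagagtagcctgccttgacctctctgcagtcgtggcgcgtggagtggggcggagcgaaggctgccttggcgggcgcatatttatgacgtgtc
The E-box CACGTG, a site bound by MYC and related factors, was in 4 of 13 cytosolic promoters (Aars, Farsb, Iars and Tars) and in 1 of 14 mitochondrial promoters (Ears2), against 8.09% of all genes. The NRF1 motif was in 3 of 13 cytosolic and 2 of 14 mitochondrial promoters, against 5.19% of all genes. The ETS motif CCGGAAG was in 5 of 13 and 4 of 14, against 9.93%. None of these motifs contains another, and a match is a description of the letters only.

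The comparison asked how the synthetase mRNAs differ between cilia-competent and cilia-depleted cells. Cytosolic and mitochondrial genes moved mostly in opposite directions, and by little. Of the 20 cytosolic genes, 12 fell, 3 rose and 5 did not pass. Of the 16 mitochondrial genes, 11 rose, 2 fell and 3 did not pass, a split that became 7 risen and 4 fallen with upper-quartile scaling. The median log2 change was -0.19 for the cytosolic and 0.21 for the mitochondrial list, against -0.00573 over all genes tested. In this comparison 69.2% of 13839 genes passed the test, 34.9% as higher and 34.3% as lower. The share of members that passed, 75.0% of the cytosolic and 81.2% of the mitochondrial list, was therefore near that of all genes. It was the direction that differed, since 60.0% of the cytosolic list was called lower and 68.8% of the mitochondrial list higher. The sizes were modest, with a median absolute log2 change of 0.284 over the 36 genes and 0.379 over all genes.

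**Figure D1:**
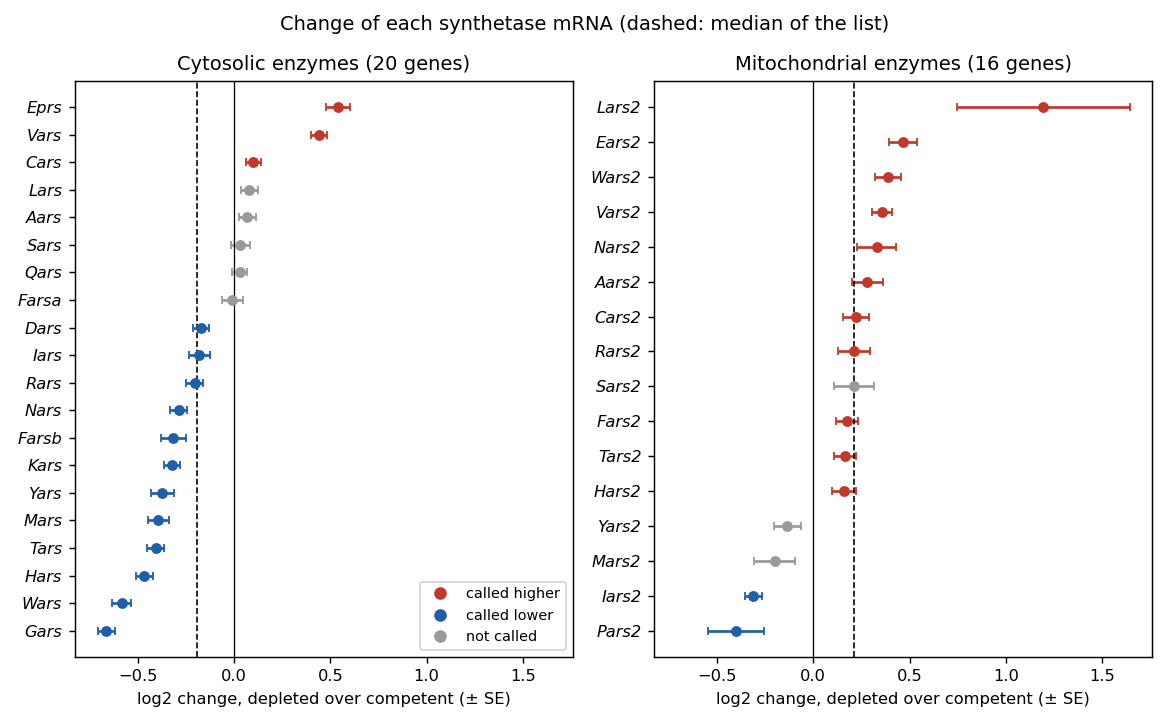
Log2 change of each synthetase mRNA (x axis, depleted over competent, bars are standard errors) for 20 cytosolic and 16 mitochondrial genes, red where called higher, blue where called lower, grey where not called, with the median of each list as a dashed line. Most cytosolic genes lie left of 0 and most mitochondrial genes right of it, and Lars2 has by far the widest error bar, at 0.45.

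Gars, Wars and Hars fell most among the cytosolic genes. Gars (ENSMUSG00000029777; GRCm38 chromosome 6, 55038007 to 55079500, plus strand), which charges glycine tRNA for both compartments, was at 253, 239 and 244 CPM in the competent and 150, 152 and 163 CPM in the depleted samples. The groups did not overlap, and Gars was 1.58-fold lower (log2 change -0.66, SE 0.046, adjusted p = 2.84e-08 in edgeR's test). It was the only cytosolic gene to change by more than 1.5-fold. Wars (chromosome 12, 108860030 to 108894174, minus strand), which charges tryptophan tRNA and is also known as an interferon-inducible gene, was at 80.6, 86.7 and 83.1 CPM and fell to 57.5, 52.4 and 57.3 CPM. Every depleted sample lay below every competent sample (log2 change -0.58, SE 0.050, adjusted p = 2.40e-07). Hars, the histidyl enzyme, was at 84.2, 81.0 and 83.6 CPM against 62.7, 59.4 and 58.4 CPM, a log2 change of -0.47 (adjusted p = 7.13e-07).

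Tars, Mars and Yars followed, for threonine, methionine and tyrosine. Tars was at 140.4, 141.5 and 142.5 CPM in competent samples, a narrow range, and at 104.9, 103.0 and 112.2 CPM in depleted samples (log2 change -0.41, adjusted p = 1.80e-06). The Mars values were 85.3, 80.0 and 83.7 CPM against 58.5, 66.1 and 64.9 CPM (log2 change -0.39, adjusted p = 1.56e-05), and 1.99% of the Mars exon length overlaps Ddit3 on the opposite strand. Yars went from 40.8, 34.7 and 37.6 CPM to 29.3, 28.8 and 29.3 CPM (log2 change -0.37, adjusted p = 9.96e-05). In each of these genes the groups were apart, and the depleted samples of Yars lay closer together than the competent ones. The other cytosolic genes that fell were Kars, Farsb, Nars, Rars, Iars and Dars, with log2 changes from -0.32 to -0.17. In all 12 that fell the groups did not overlap, but these were selected by the test. Over the full cytosolic list the groups did not overlap in 16 of 20 genes, beside 72.5% of all genes tested.

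Eprs and Vars went the other way. Eprs (ENSMUSG00000026615; chromosome 1, 185363044 to 185428360, plus strand), which encodes the fused glutamyl-prolyl enzyme, was at 136.5, 159.9 and 165.5 CPM in the competent samples. It rose to 224.0, 228.5 and 219.2 CPM, which is 1.45-fold (log2 change 0.54, SE 0.062, adjusted p = 3.54e-06). Vars (chromosome 17, 35000987 to 35016322, plus strand), the valyl enzyme, rose 1.36-fold from 168.6, 171.0 and 176.6 CPM to 232.9, 233.8 and 234.0 CPM (adjusted p = 3.84e-07). For both genes all depleted samples were above all competent samples, and the Vars values in depleted cells were nearly identical. Cars, the cysteinyl enzyme, passed narrowly at a log2 change of 0.10 (adjusted p = 0.0413), and that call did not hold in several other fits. The adjusted p of Cars was 0.0935 by DESeq2, 0.290 with upper-quartile scaling, 0.134 with no filter on low counts and 0.716 with the length trend removed. It was 0.0531 to 0.177 without each sample in turn other than depleted replicate 1.

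Farsa, Qars, Sars, Aars and Lars did not pass, with log2 changes of -0.01 to 0.08. The exons of Aars overlap Exosc6 on the same strand over 14.3% of their length. Farsa and Farsb encode the α and β subunits of the same phenylalanyl enzyme. Farsb was at 30.3, 29.2 and 31.4 CPM in competent and 23.1, 23.1 and 26.7 CPM in depleted samples (log2 change -0.31, adjusted p = 0.000765). Farsa, by contrast, had overlapping groups, with 41.9 to 47.8 CPM in competent and 43.0 to 45.6 CPM in depleted samples (log2 change -0.01, adjusted p = 0.896). The difference between these 2 subunits was not tested. Of the 8 cytosolic enzymes held in the multisynthetase complex, a large assembly with the Aimp scaffolds, 5 fell (Mars, Kars, Rars, Iars and Dars), Eprs rose, and Qars and Lars did not pass. Of the 12 outside it, 7 fell, 2 rose and 3 did not pass. The median log2 change was -0.18 inside and -0.30 outside the complex. Summed over all 20 cytosolic genes, the level was 2764, 2770 and 2833 CPM in competent and 2550, 2613 and 2679 CPM in depleted samples, a ratio of 0.937.

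**Figure D2:**
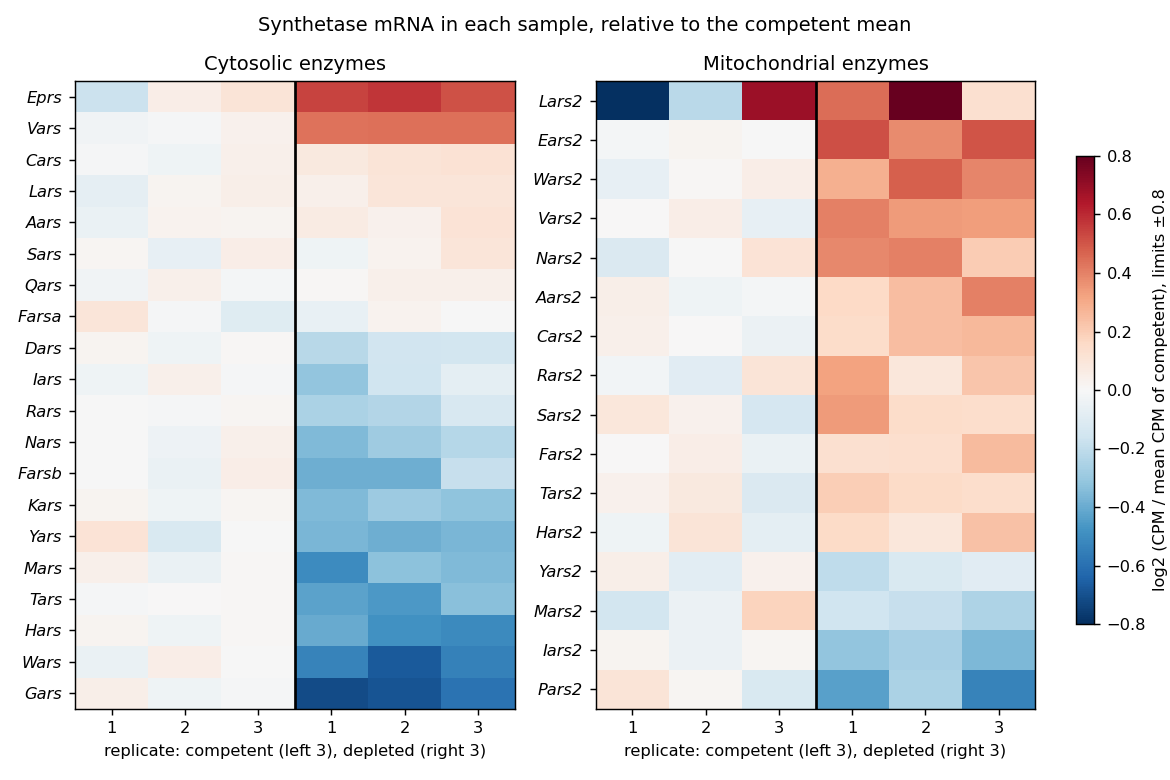
Each cell of the grid is the log2 ratio of a gene's CPM in a sample (columns, 3 competent then 3 depleted) to its mean in the competent samples. The 3 depleted samples resemble each other for most genes, and Lars2 differs from sample to sample within both groups.

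Among the mitochondrial genes that rose, Ears2, Wars2 and Vars2 had the smallest adjusted p. Ears2 (ENSMUSG00000030871; chromosome 7, 122037213 to 122067263, minus strand), the glutamyl enzyme, which also loads glutamate onto the mitochondrial glutamine tRNA ahead of amidation, was at 11.9, 12.1 and 11.9 CPM in competent samples. It was at 17.1, 15.6 and 17.0 CPM in depleted samples, 1.38-fold higher (log2 change 0.47, SE 0.070, adjusted p = 4.99e-05). Wars2, the tryptophanyl enzyme, rose from 16.7, 17.5 and 18.1 CPM to 21.3, 24.3 and 22.9 CPM (log2 change 0.39, adjusted p = 0.000156). These ranges were well apart. Vars2 rose from 31.1, 32.1 and 29.6 CPM to 41.0, 39.1 and 39.0 CPM (log2 change 0.36, adjusted p = 3.07e-05), again without overlap.

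Smaller rises were seen for Nars2 and Aars2, which charge asparagine and alanine tRNA. Nars2 was at 6.66, 7.21 and 7.78 CPM against 9.43, 9.54 and 8.32 CPM (log2 change 0.33, adjusted p = 0.00957), and Aars2 at 12.1, 11.4 and 11.6 CPM against 13.1, 13.9 and 15.5 CPM (log2 change 0.28, adjusted p = 0.00712). With the trend with transcript length removed, neither passed (adjusted p = 0.0688 and 0.0508). Cars2, Rars2, Fars2, Tars2 and Hars2 rose with log2 changes of 0.16 to 0.22. Of these only Cars2 kept its call under all 14 alternative fits. With upper-quartile scaling the calls of Rars2, Tars2, Hars2 and Fars2 were lost (adjusted p = 0.0948, 0.0981, 0.139 and 0.0685), and with DESeq2 those of Rars2, Tars2 and Hars2 (adjusted p = 0.0763, 0.0533 and 0.0897). Single samples decided them too. Rars2 did not pass without competent replicate 1 or 2 or depleted replicate 1 or 3 (adjusted p = 0.0739, 0.126, 0.125 and 0.0729). Hars2 did not pass without competent replicate 1 or 3 or depleted replicate 1 or 3 (adjusted p = 0.0915, 0.170, 0.0618 and 0.146), nor with the length trend removed (0.335). Tars2 did not pass without competent replicate 3 or depleted replicate 1 (adjusted p = 0.139 and 0.0612), and Fars2 without competent replicate 3 or depleted replicate 3 (adjusted p = 0.0753 and 0.0715).

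Iars2 and Pars2 were the mitochondrial genes that fell. Iars2, the isoleucyl enzyme, was at 84.5, 80.5 and 84.1 CPM in competent and 66.8, 68.9 and 64.8 CPM in depleted samples (log2 change -0.31, adjusted p = 2.76e-05). Antisense neighbours cover 24.2% of its exon length, and how strand was handled in counting is not given in the sources used here. Pars2, the prolyl enzyme, was at 3.79, 3.56 and 3.24 CPM against 2.62, 2.96 and 2.44 CPM (log2 change -0.40, adjusted p = 0.0237). DESeq2 did not call Pars2 (adjusted p = 0.0785). Nor did the fits that left out competent replicate 1, depleted replicate 1 or depleted replicate 3 (adjusted p = 0.0782, 0.0569 and 0.0884). Sars2, Yars2 and Mars2 did not pass, at log2 changes of 0.21, -0.13 and -0.20.

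Lars2 (ENSMUSG00000035202; chromosome 9, 123366927 to 123462666, plus strand), the mitochondrial leucyl enzyme, had the largest change and the least certain. It was at 89.3, 143.5 and 267.5 CPM in competent samples and at 227, 736 and 182 CPM in depleted samples. The groups overlapped, and depleted replicate 2 was far above all others. The fitted log2 change of 1.19 (SE 0.45, adjusted p = 0.0301) became 0.29 without that sample (adjusted p = 0.423). Lars2 was also not called by DESeq2 (adjusted p = 0.216), nor when competent replicate 1 or 2 was left out (adjusted p = 0.0848 and 0.0623). Every other member had a standard error of at most 0.14. Without Lars2, the summed level of the other 15 mitochondrial genes was 313, 313 and 308 CPM in competent and 331, 330 and 332 CPM in depleted samples. That is a ratio of 1.06 with no overlap, whereas with Lars2 included the ratio was 1.49 and depleted replicate 2 reached 1066 CPM.

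The sample pattern of Lars2 was shared by a gene annotated as a microRNA. Among 9427 genes whose group means summed to over 20 CPM, the spread within groups was largest for Mir6236 (SD 1.03 on the log2 scale) and next largest for Lars2 (0.947), while the gene in the next place had 0.563 and the median gene 0.0641. Mir6236 lies elsewhere on chromosome 9 (110281287 to 110281409) and was at 17.1, 29.0 and 59.4 CPM in competent and 46.5, 167.5 and 37.4 CPM in depleted samples. The order of the samples was the same for both genes. The ratio of Lars2 to Mir6236 stayed between 4.39 and 5.23 in the 6 samples, although Lars2 itself ran from 89.3 to 736 CPM. Deviations from the group means correlated at 0.9997 between Lars2 and Mir6236, and another of the 9427 genes reached 0.999 with Lars2. Mir6236 was singled out after its values were seen, and the source of the shared pattern was not tested.

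**Figure D3:**
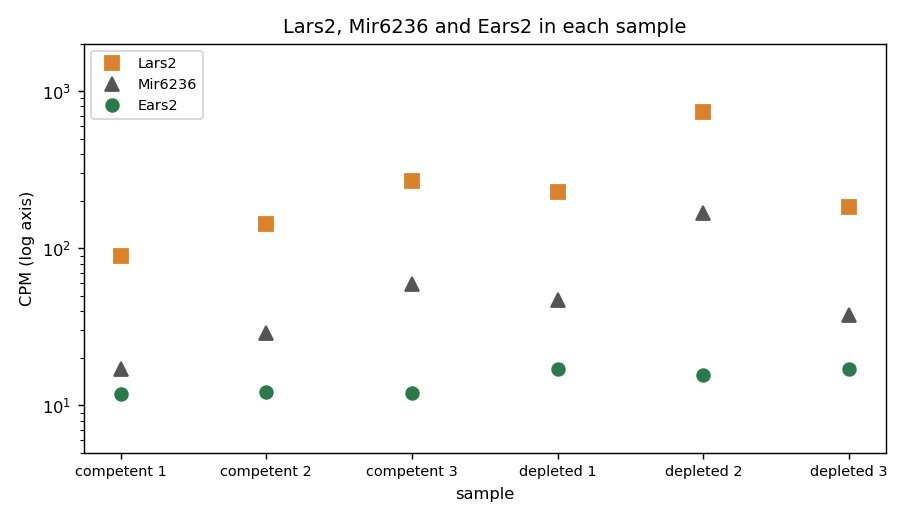
CPM on a log axis for Lars2 (squares), Mir6236 (triangles) and, for contrast, Ears2 (circles) in each of the 6 samples. Lars2 and Mir6236 go up and down together, both highest in depleted replicate 2, and Ears2 separates the groups at 11.9 to 12.1 CPM against 15.6 to 17.1 CPM.

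Levels can be compared between genes only per length, here as CPM per kilobase of the main transcript in competent cells. Cytosolic genes ran from 13.0 (Yars) to 118.8 (Nars), with a median of 39.8. Mitochondrial genes ran from 0.684 (Mars2) to 42.8 (Lars2), with a median of 7.09. After Nars came Gars at 103, Sars at 69.7, Kars at 68.0 and Qars at 63.6. Apart from Lars2, Iars2 was the highest mitochondrial gene, at 15.2 CPM per kilobase, which is above Yars and Farsb (14.9) only. The mRNAs of both sets were of similar length, with medians of 2854.5 and 2868 nt.

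Each change was also fitted with the trend with transcript length over all genes removed. The median log2 change was then -0.18 for cytosolic and 0.21 for mitochondrial genes, almost the same as before. All 12 cytosolic genes that fell still passed, and 9 mitochondrial genes were higher and 3 lower. Aars fell in that fit (log2 change -0.13, adjusted p = 0.00726), Farsa rose (0.13, adjusted p = 0.0393), Mars2 fell (-0.53, adjusted p = 0.000186) and Sars2 rose (0.33, adjusted p = 0.00915).

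For each amino acid with its own gene in both compartments, the pair was compared directly, as 17 pairs in which Fars2 was set against both phenylalanyl subunits and Eprs against both Ears2 and Pars2. The mitochondrial-to-cytosolic ratio was higher in depleted cells in 13 pairs. In 7 pairs the genes were called in opposite directions: Hars and Hars2, Nars and Nars2, Rars and Rars2, Tars and Tars2, Wars and Wars2, Farsb and Fars2 all had the cytosolic gene lower and the mitochondrial gene higher, and Eprs and Pars2 the reverse. That count was 3 with upper-quartile scaling and 3 with DESeq2. The 7 became 4 without competent replicate 1 or competent replicate 3, and 3 without depleted replicate 1 or depleted replicate 3. Of all genes tested, 34.9% were called higher and 34.3% lower. How often other gene pairs would be called in opposite directions was not computed, so the 7 of 17 pairs have no such share beside them. The tryptophan pair differed most among those without Lars2. Its log2 ratio of Wars2 to Wars went from -2.26 ± 0.055 to -1.29 ± 0.17 (SD, n = 3), a shift of 0.97. The histidine pair shifted by 0.62, the asparagine pair by 0.62 and the threonine pair by 0.57. The shift from Eprs to Pars2 was nearly as large as that of tryptophan but downward, at -0.95. Nars itself was at 325, 317 and 336 CPM against 255, 268 and 278 CPM, so the asparagine genes crossed in opposite directions with no overlap in either.

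In the arginine and phenylalanine pairs the ratio shifted by 0.42 (Rars2 to Rars) and 0.49 (Fars2 to Farsb). Rars was at 116.6, 116.1 and 117.9 CPM against 98.1, 99.2 and 107.1 CPM, while Rars2 was at 13.2, 12.6 and 14.4 CPM against 16.8, 14.3 and 15.6 CPM with overlapping groups. Tars2 was at 33.3, 34.3 and 30.1 CPM against 37.4, 36.2 and 35.9 CPM, without overlap. Hars2 was at 25.1, 27.6 and 24.3 CPM against 28.6, 27.3 and 30.2 CPM, so its groups overlapped. Hars and Hars2 lie head to head on chromosome 18, and 7.97% of the Hars exon length overlaps Hars2 on the opposite strand. Fars2 was at 27.1, 28.0 and 26.1 CPM against 29.6, 29.7 and 32.3 CPM, and 10.7% of its exon length overlaps genes on the opposite strand.

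The members of 4 pairs were called in the same direction: Iars and Iars2 fell together, while Cars and Cars2, Vars and Vars2, and Eprs and Ears2 rose. The ratio of the valine pair shifted by -0.08 with overlapping groups, and that of the glutamate pair by -0.08 (exact permutation p = 0.6, two-sided). For single genes the groups did not overlap in 72.5% of all genes tested, and no such share was computed for ratios of other gene pairs. In 10 of the 17 pairs the ratios of the groups did not overlap, 9 of them higher in depleted cells. With 3 samples against 3, the two-sided exact permutation test cannot go below 0.1, which is the value of each of these 10, and 0.17 after adjustment over the 17 pairs.

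**Figure D4:**
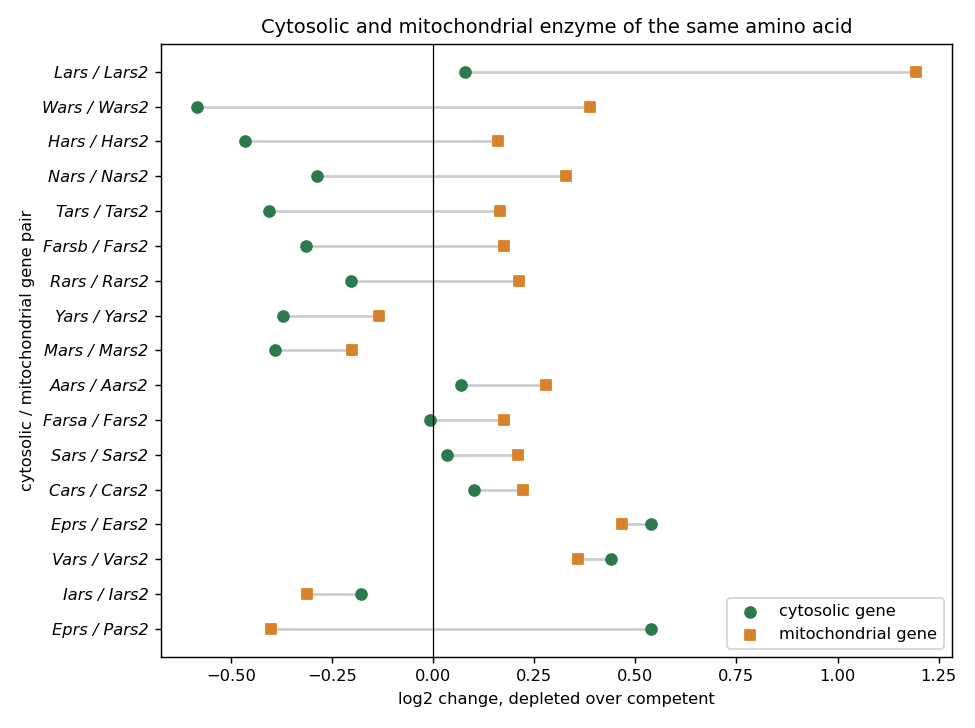
For 17 pairs, the log2 change (x axis, depleted over competent) of the cytosolic gene (circles) and the mitochondrial gene (squares) of the same amino acid, joined by a line and ordered by the shift in their ratio. Lars / Lars2 tops the order but rests on variable Lars2 values, and Eprs / Pars2 is the pair with the largest shift the other way.

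The partners of the synthetases were read from 12 further lists. Their counts are to be read beside the 34.9% of all genes tested that were called higher and the 34.3% called lower. All 3 scaffolds of the multisynthetase complex fell: Aimp2 from 35.7, 35.6 and 34.2 CPM to 19.7, 19.05 and 18.4 CPM (1.85-fold, adjusted p = 8.97e-09), Eef1e1 by 0.36 on the log2 scale and Aimp1 by 0.22. Aimp2 shares 29.4% of its exon length with Eif2ak1 on the opposite strand, and the Aimp1 change was 0.08 with the length trend removed (adjusted p = 0.106). Among 5 tested genes that clear wrongly charged or stalled tRNAs, 3 fell (Dtd1 1.70-fold, Ptrh2 1.55-fold and Dtd2 1.48-fold). Dtd1 and Dtd2 encode deacylases that remove D-amino acids or mischarged residues, and Ptrh2 a peptidyl-tRNA hydrolase. Of 32 genes for tRNA processing, export and modification, 16 fell, 10 rose and 6 were not called (median log2 change -0.22, and -0.03 with the length trend removed). The methyltransferase gene Ftsj1 (1.72-fold), the splicing endonuclease subunit Tsen34 (1.66-fold, with 10.9% of its exon length antisense to Mboat7) and the RNase P subunit Pop4 (1.56-fold) fell, while Rpp38, for another protein of that enzyme, rose 1.81-fold.

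In the cytosol, 6 of 10 genes of translation elongation and termination fell, 2 rose and 2 did not pass. Eif5a, which helps ribosomes past stretches such as polyproline, fell 1.55-fold from 430 ± 18.9 to 278 ± 9.91 CPM (SD, n = 3). The release factor gene Gspt1 and the elongation factor subunit gene Eef1g fell by 0.39 and 0.38 on the log2 scale, and Eef2k, for the kinase that slows elongation, rose 1.24-fold, which with the length trend removed was a log2 change of 0.08 (adjusted p = 0.108).

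Atf4 mRNA and most of its listed relatives were higher in the depleted cells, in which 12 of the 20 cytosolic synthetase mRNAs were lower. Atf4 was at 270, 298 and 270 CPM in competent and 528, 543 and 584 CPM in depleted samples, a 1.97-fold rise without overlap (adjusted p = 2.75e-09). ATF4 is regulated chiefly by translation, and its protein was not measured. Of 8 tested genes for ATF4 and related leucine-zipper factors, 7 rose and 1 fell, with Atf3 (log2 change 5.50), Cebpb (10.1-fold, from 34.8 ± 0.757 to 351 ± 55.5 CPM), Ddit3 (log2 change 2.82) and Jdp2 (2.11-fold) ahead. Of the Cebpb exon length, 20.7% overlaps Tmem189 on the opposite strand. Of 12 genes that set eIF2 phosphorylation, 7 rose and 5 fell. Ppp1r15a, for the GADD34 subunit that directs eIF2 dephosphorylation, rose 8.37-fold from 81.9 ± 5.55 to 686 ± 6.64 CPM. Impact, for an inhibitor of the kinase GCN2, was at 24.2, 22.6 and 22.9 CPM and rose to 80.7, 77.0 and 71.3 CPM (3.28-fold, adjusted p = 2.37e-11). Eif2ak3, for the kinase PERK, rose 1.73-fold and Nck1 1.52-fold.

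The other ATF4 targets divided, with 13 of the 22 tested lower, 7 higher and 2 not called. Their median log2 change was -0.36. The mTORC1 inhibitor genes Ddit4 (3.73-fold) and Sesn2 (2.08-fold) rose, as did Chac1 (log2 change 1.14), for an enzyme that degrades glutathione. Pycr1, for a proline synthesis enzyme, fell 2.19-fold. Psat1 and Phgdh of serine synthesis and Asns of asparagine synthesis also fell. Along with Atf4, they were named after their values were seen. Psat1 was at 90.3, 94.0 and 95.9 CPM against 45.3, 43.5 and 53.2 CPM (log2 change -0.98, adjusted p = 2.12e-08), and Phgdh fell 1.51-fold from 269.5 ± 12.5 to 178 ± 11.9 CPM. Asns fell 1.42-fold (adjusted p = 3.54e-06). Of 10 amino acid transporters tied to ATF4, 6 rose and 2 fell (median log2 change 0.12). With the length trend removed 3 rose, since Slc7a1, Slc7a5 and Slc1a5 were no longer called, and the median was 0.0088. Upper-quartile scaling and DESeq2 each gave 3 that rose as well, as did leaving out competent replicate 1 or 3, or depleted replicate 3. The glutamine carrier gene Slc38a2 rose 1.64-fold from 411 ± 12.9 to 676 ± 24.3 CPM, Slc38a1 fell 1.29-fold, and Slc7a11 (log2 change -0.38, adjusted p = 0.0401) and the scarce Slc7a3 (0.85, adjusted p = 0.0151) lost their calls without some samples. For Slc7a11 these were competent replicate 2, competent replicate 3 and depleted replicate 1 (adjusted p = 0.0808, 0.130 and 0.147). For Slc7a3 they were competent replicate 1 and depleted replicate 2 (adjusted p = 0.0670 and 0.0696), and DESeq2 gave 0.0550. Of 16 genes by which mTORC1 senses amino acids, 6 rose and 4 fell. Those that rose were led by the mTORC1 inhibitor genes Tsc1 (1.86-fold), Depdc5 (1.75-fold) and Sesn1 (1.69-fold). The other genes that rose were Rptor (1.36-fold) and Mtor (1.33-fold), for parts of mTORC1 itself, and Nprl2 (1.27-fold). The Ragulator subunit gene Lamtor2 fell 1.57-fold.

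On the mitochondrial side, 7 of 16 genes for tRNA maturation and amidation rose and 3 fell. Trit1, which modifies the adenosine beside the anticodon, rose 2.72-fold from 6.93 ± 0.741 to 18.8 ± 0.708 CPM, Trmt10c, a subunit of mitochondrial RNase P, 2.06-fold and Mto1, a wobble-base enzyme, 1.81-fold. Hsd17b10, whose product is another subunit of that RNase P, fell 1.65-fold. Translation factors of the organelle divided evenly, with 5 of 14 higher and 5 lower. Mtrf1l, a release factor gene, rose 2.53-fold, Gfm2 1.49-fold and Mtif2 1.41-fold, and Slirp, for an RNA-binding stabiliser of mitochondrial mRNAs, fell 1.52-fold. Genes on the opposite strand (Alkbh1 and Snw1) cover 97.8% of the Slirp exon length. Of 10 genes tied to transcription of mitochondrial DNA and its regulation, 6 rose and 2 fell. The coactivator genes Ppargc1b (from 0.251 ± 0.0753 to 1.00 ± 0.304 CPM, log2 change 1.95) and Ppargc1a (2.52-fold) rose from low levels, as did the rRNA methyltransferase gene Tfb1m (1.65-fold), and Myc, an activator of many synthetase and mitochondrial genes, rose by a log2 change of 1.69.

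**Figure D5:**
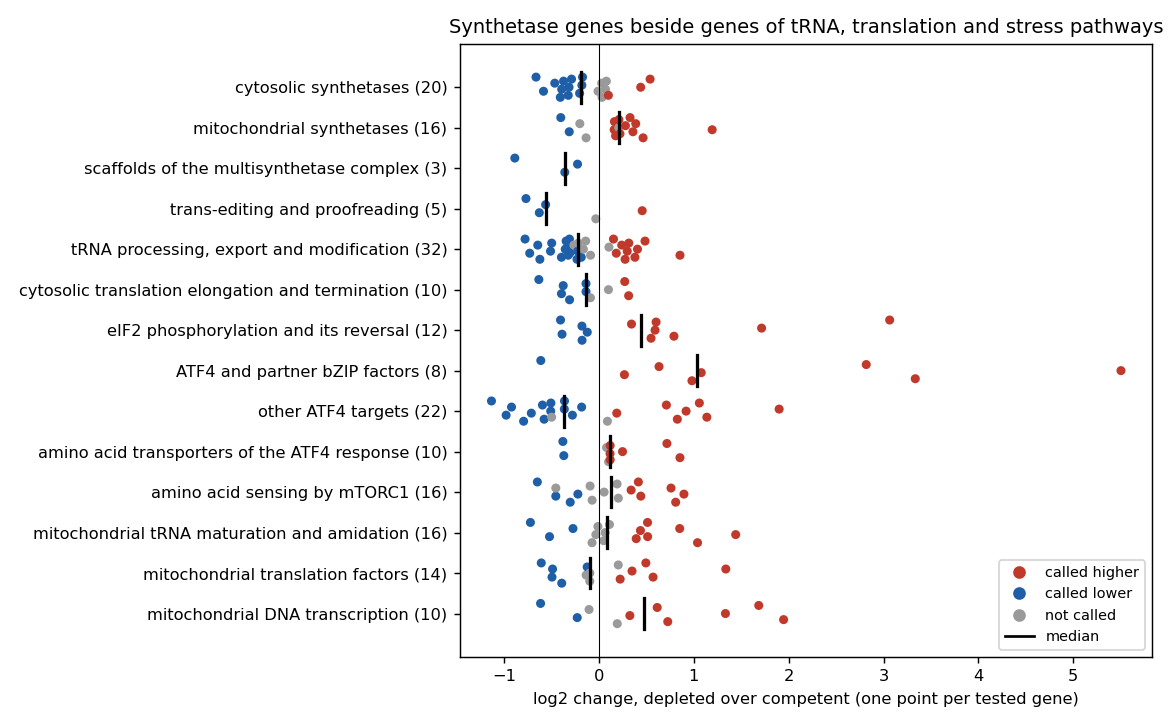
Log2 change (x axis, depleted over competent) of every tested gene in the cytosolic and mitochondrial synthetase lists and 12 related lists, coloured by call, with the median of each list as a black bar and the number tested in brackets. The median of the cytosolic list lies on the same side of 0 as the medians of its scaffolds and of the other ATF4 targets. The median for ATF4 and related leucine-zipper factors lies on the opposite side, and single genes of these lists lie on both sides except among the scaffolds.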

How the data were processed

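Messenger RNA of 6 samples was sequenced after poly-A selection with a directional kit, per the labels' protocols. The authors deposited raw counts per gene in a single table. FastQC 0.11.9, MultiQC 1.3, cutadapt 1.16, STAR 2.7.1a, featureCounts, DESeq2 1.34.0 and GRCm38 are named in the submitters' processing notes. The annotation and strand setting are not given in the sources used here. Columns PC WT and PC KO were matched to the competent and depleted titles by group and replicate number.

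The test was edgeR 4.0.16 under R 4.3.3 (filterByExpr, TMM, glmQLFit and glmQLFTest, group as the only term, Benjamini-Hochberg over 13839 genes). The code was tested on simulated data. Of 32061 identifiers, 32009 were found in GENCODE M21, which gave symbols, coordinates and lengths. Samples within a group differed by more than sampling noise (chi-square over degrees of freedom 5.54 to 9.86), and each counted once. Alternatives were DESeq2 1.42.0, limma 3.58.1 with voom, RLE or upper-quartile scaling, other filters and thresholds, the replicate block, leaving out each sample, and removal of the trend with transcript length (loess, span 0.5). Leaving out Lars2, and the alternatives for the count of oppositely called pairs and for the related lists, were added after the data were seen.

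The members and lists were chosen with earlier results of these data known. The rule for per-sample values took up to 8 called members with the largest change in each list and both genes of oppositely called pairs, and from each related list up to 4 called genes with the largest change. Atf4, Psat1, Phgdh, Asns, Rptor, Mtor and Nprl2 were named outside it. A few items the rule would take are not reported here.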

Additional observations from a re-analysis of the deposited data

How the results depend on the processing

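Of 504 values of single members under 14 alternative fits, 447 kept their direction and side of the threshold, 40 lost the call, 5 gained one and 12 changed sign, none of these 12 in a called member. The 12 cytosolic genes that fell kept their call in all 14 fits, as did 4 of the 11 mitochondrial genes that rose (Ears2, Wars2, Vars2 and Cars2). With upper-quartile scaling, which moves the median of all genes to -0.056, 7 mitochondrial genes were higher and 4 lower, and the list medians were -0.24 (cytosolic) and 0.16 (mitochondrial). With DESeq2, 7 mitochondrial genes were higher and 1 lower. At an adjusted p below 0.01, 6 were higher and 1 lower. An adjusted p below 0.05 together with over 1.5-fold left 3936 genes in all, 0 higher and 1 lower among the cytosolic and 1 higher and 0 lower among the mitochondrial genes. With no filter on low counts the mitochondrial median was 0.20, and without Lars2 it was 0.21 with 10 genes higher. Leaving out each sample in turn gave cytosolic medians of -0.24 to -0.16, mitochondrial medians of 0.17 to 0.22, 8 to 10 mitochondrial genes higher and 1 to 3 lower, and 12 cytosolic genes lower each time. Pairs called in opposite directions numbered 7, against 3 with upper-quartile scaling, 3 with DESeq2, 2 at an adjusted p below 0.01, 0 with over 1.5-fold as well as an adjusted p below 0.05, and 3 to 7 without each sample in turn. The cause of these shifts was not tested.

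The sign changes among members were in genes that were not called, and the scaffold gene Aimp1, called lower at -0.22, also changed sign. With the length trend removed, the log2 change was -0.13 for Aars, 0.13 for Farsa, -0.050 for Lars, -0.015 for Qars, -0.072 for Sars, 0.066 for Yars2 and 0.077 for the scaffold gene Aimp1. With upper-quartile scaling it was -0.021 for Qars and -0.017 for Sars. Without each sample in turn it was -0.062 to 0.039 for Farsa, positive without competent replicate 1 or depleted replicate 1. For Sars it was -0.0067 to 0.066, negative without competent replicate 2 or depleted replicate 3. Replicate numbers are shared between groups, and whether they mark a pairing is not known. The deviations of same-numbered samples correlated at -0.0278, 0.0133 and -0.0155, and no sample correlated best with its own number. With 3 samples per group, such small correlations cannot exclude a shared animal, culture or batch. With the replicate block 9526 genes passed against 9576 without it, and Cars alone among the members lost its call (log2 change 0.10, adjusted p = 0.0550).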

Other observations

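Synthetases fall into structural classes I and II, which differ in the fold of the active site. Of 10 cytosolic class II genes, 7 fell and 0 rose (edgeR's quasi-likelihood test), with a median log2 change of -0.30. Of 9 cytosolic class I genes, 5 fell and 2 rose (Vars and Cars), with a median of -0.18. Eprs, which holds both kinds of domain, was left out of both counts. The share called lower was 70.0% in class II and 55.6% in class I. It was 60.0% in the cytosolic list and 34.3% among all genes tested. Among mitochondrial genes 6 of 9 in class I and 5 of 7 in class II rose, beside 68.8% of the mitochondrial list and 34.9% of all genes tested. The classes were set side by side after the data were seen and their difference was not tested.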
